A study of Mus musculus with 9 samples.

Results

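The cells described here are cells of mouse RPE and retina samples that were selected by 5 pericyte transcripts, Rgs5, Pdgfrb, Kcnj8, Abcc9 and Notch3. A cell was taken when it held at least 1 unique molecular identifier (UMI, a counted transcript molecule) of at least 3 of these genes, when their sum reached 5 per 10,000 UMIs of the cell, and when that sum exceeded the sum of the endothelial genes Ptprb, Adgrl4, Flt1, Cldn5 and Pecam1. The rule selected 254 of 31089 cells (0.817%), 102 from control and 152 from dKO mice, and they are called pericyte-rule cells. Single-cell RNA-sequencing had been carried out on retinal pigment epithelium (RPE) and retinas of 4 control mice (S01 to S04) and 5 dKO mice (S05 to S09) 6 months after induction. Both retinas of a mouse were combined into a single sample. Every mouse, control or dKO, carried RPE65-ERT2-Cre together with floxed miR-204 and floxed miR-211 alleles. The study describes tamoxifen-treated mice without Cre as its controls, whereas the labels of these samples give the Cre genotype and corn oil, and the labels were followed. Control mice received corn oil and dKO mice received tamoxifen at 75 mg/kg in corn oil, by intraperitoneal injection on 5 days from postnatal day 28. The Cre is driven by Rpe65, a gene of the retinal pigment epithelium (RPE), so the deletion was directed to RPE and not to the vessel wall, and tamoxifen itself differed between the groups.

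Pericytes sit within the basement membrane of capillaries and contact the endothelium beneath them. They depend on platelet-derived growth factor B released by endothelial cells and sensed by PDGFRB, hold the blood-retina barrier together with the endothelium, and tune capillary tone through ATP-sensitive potassium channels, calcium entry and cyclic GMP. On arterioles and venules the same position is taken by smooth muscle cells and transitional mural cells rich in contractile proteins, and larger vessels also carry perivascular fibroblasts.

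The microRNAs that were deleted are shown because they define the genotype under test, although neither was measured in these libraries. The mature sequences, from RefSeq on GRCm38.p6, have the seed (bases 2 to 8) in capitals. Mature miR-204-5p lies at chr19:22750610-22750631 on the plus strand and mature miR-211-5p at chr7:64205831-64205852 on the plus strand, and their host genes are Trpm3 and Trpm1, respectively.
mmu-miR-204-5p: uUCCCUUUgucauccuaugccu
mmu-miR-211-5p: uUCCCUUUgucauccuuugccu
Both are 22 bases long, share the whole seed and differ at 1 base, at position 17.

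To learn how firmly the rule held, the marker content of the selected cells was examined. Of the cells, 136 held 3 of the 5 markers, 42 held 4 and 76 held all 5, and the marker sum had a median of 74.0 per 10,000 UMIs, from 5.06 to 374. The sums of the 5 cells just inside the threshold ran from 5.06 to 5.95 and those of the 5 just outside from 3.24 to 4.87, and only 18 selected cells were under 10. Before the last 2 conditions, 381 cells held 3 or more markers. The comparison with endothelial genes alone removed 76 of them and the sum alone removed 32. A selected cell had a median of 8905 UMIs (1707 to 70885) and 2931 genes. Cells came from all 8 sublibraries, with 23 to 40 in each, and 2 of them shared their 3-round barcode with another selected cell, in neither case across mice.

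Pericyte markers that the rule did not use were present in the selected cells. Endothelial cells selected by the mirror of the rule (337 cells) served as the reference, and levels are CPM (the count of a gene per 1000000 UMIs, summed over the cells of a mouse), given as mean ± SD over mice with enough cells. For the pericyte-rule cells that is the 8 mice with at least 10 such cells (all but S05, with 5), and for endothelial cells the same 8 mice. Of 12 further pericyte markers, 12 had a higher mean in pericyte-rule than in endothelial cells and 10 were higher in every 1 of the 8 mice. Cspg4, the NG2 proteoglycan of mural cells, was at 382 ± 92.2 CPM against 55.5 ± 26.9. Vtn, which encodes the matrix protein vitronectin, was at 447 ± 201 CPM against 110 ± 42.5, and Higd1b was at 60.6 ± 31.6 CPM against 10.3 ± 6.20. These differences are descriptions, since the cells were chosen by what they express.

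Transcripts of other cells were low but not absent. Rgs5, the regulator of G-protein signalling that leads most pericyte lists, averaged 5080 ± 1494 CPM in pericyte-rule cells, 983 ± 464 CPM in endothelial cells and 10.04 ± 15.4 CPM in rods (9 mice), so its level in endothelial cells was far above what rods carried. A list of 10 endothelial markers outside the rule was lower in pericyte-rule than in endothelial cells in all 8 mice for 10 of 10 genes, and 9 pericyte-rule cells held UMIs of 3 or more of the 5 endothelial rule genes. Of 10 RPE markers, Best1, Mlana and Tyrp1 were at 0 UMIs, and the whole list summed to 4.4 per 10,000 UMIs against 25.8 in all remaining cells. That list includes Trpm3, with 836 UMIs in pericyte-rule cells, and Slc6a20a, with 93. These genes also stand in the ion channel list and among the further pericyte markers, so the sum is not a measure of RPE transcripts alone. Rod markers, 10 genes, summed to between 6.4 and 59.3 per 10,000 UMIs of a mouse's pericyte-rule cells, against 243.7 in rods.

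Mice S04, S05 and S07 stood apart before any comparison. Rods, by a marker rule, made up 77.9 to 90.8% of their cells against 32.7 to 46.3% in the other mice, and the median UMI count over all cells was 4775 to 5412.5 against 8118 to 10340. In their pericyte-rule cells, rod markers took 0.402 to 0.593% of the UMIs against 0.0644 to 0.128%. The Y-linked genes Uty, Ddx3y, Kdm5d and Eif2s3y had 91, 18 and 76 UMIs in the pericyte-rule cells of these mice and 0 to 4 in those of the others, while Xist had 5, 3 and 8 UMIs against 114 to 662. The labels give no sex. Shares are therefore also given without these mice.

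The 20 genes with the highest ratio of level in pericyte-rule cells to all other cells included many of mural and smooth muscle cells. Myh11, the smooth muscle myosin heavy chain, led with 2154 ± 1459 CPM against 5.51 CPM in all other cells. Cysltr2, a leukotriene receptor, was at 228 ± 99.4 CPM, the amino acid transporter Slc38a11 at 821 ± 384 CPM, and Casq2, a calcium store protein, at 338 ± 77.5 CPM. Of the genes that chose the cells, Kcnj8, Notch3 and Abcc9 were among the 20. The other members of this group were Or51e1, Acta2, Map3k7cl, Higd1b, Aspn, Gper1, Rasl12, Jph2, Rrad, Susd5, Gm6249, Carmn and Rem1. The level of Myh11 differed between mice, from 875 CPM in S08 to 5208 CPM in S04.

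The selected cells were not of a single kind. Among the 254 cells, 102 (40.2%) held UMIs of at least 3 of the contractile genes Acta2, Tagln, Myh11, Cnn1 and Myl9 and are called contractile-gene cells. Another 66 (26.0%) held at least 3 of the fibroblast genes Dcn, Lum, Col1a1, Col1a2 and Pdgfra and are called fibroblast-gene cells. The remaining 86 (33.9%) met neither criterion, and 0 cells met both. These groups were drawn after the values had been seen and carry no test. Median depth was 9698.5 UMIs in contractile-gene cells, 9581 in fibroblast-gene cells and 7773 in the cells with neither gene group, the lowest. Of all the cells, 28 held exactly 2 contractile genes and 6 held exactly 2 fibroblast genes.

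**Figure D1:**
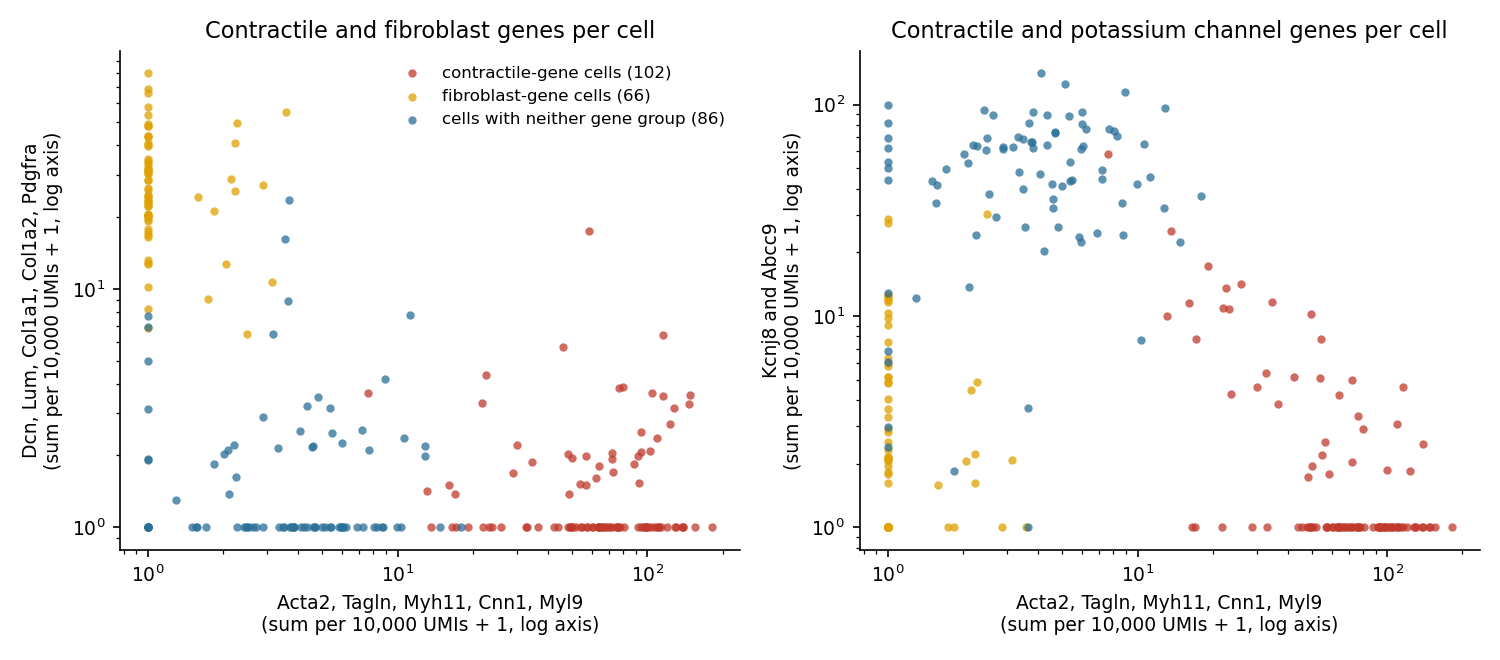
Each point is 1 of the 254 pericyte-rule cells, with the summed UMIs of 5 contractile genes per 10,000 UMIs on the x axis (plus 1, log axis) and the sum of 5 fibroblast genes (left) or of Kcnj8 and Abcc9 (right) on the y axis (plus 1, log axis). The 102 contractile-gene cells lie along the right of both panels and the 66 fibroblast-gene cells at the upper left of the left panel, while most of the 86 cells with neither gene group lie high in the right panel.

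The 5 markers of the rule were not shared evenly. All 5 were found in 66 of the 86 cells with neither gene group, in 9 of the 102 contractile-gene cells and in 1 of the 66 fibroblast-gene cells, 60 of which held exactly 3. The median marker sum was 176 per 10,000 UMIs in the cells with neither gene group, 71.8 in contractile-gene cells and 15.1 in fibroblast-gene cells. Of the fibroblast-gene cells, 50 also met a rule for fibroblasts that was built like the pericyte rule and found 364 cells in the series. These counts use the genes that chose the cells. The 12 further pericyte markers, which did not, summed to 39.05 per 10,000 UMIs in the cells with neither gene group, 15.4 in contractile-gene cells and 2.3 in fibroblast-gene cells, against 4.7 in endothelial cells. In the summed cells with neither gene group, Vtn alone was at 1240 CPM and Atp13a5 at 905 CPM. By the sum of the 12 markers the label pericyte did not hold for the fibroblast-gene cells, whose sum was below that of endothelial cells.

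Of the genes of the rule, Kcnj8 and Abcc9 differed between the groups, which is a description because they also chose the cells. They encode the pore (Kir6.1) and the sulfonylurea receptor (SUR2) of the vascular ATP-sensitive potassium channel and lie close together on the minus strand of chromosome 6, Kcnj8 at chr6:142510563-142517830 and Abcc9 at chr6:142533588-142648571 (GRCm39). A UMI of either gene was found in 85 of 86 cells with neither gene group, in 34 of 102 contractile-gene cells and in 42 of 66 fibroblast-gene cells. A cell that lacked Rgs5, Pdgfrb or Notch3 could be selected only with Kcnj8 or Abcc9, so these counts follow in part from the selection. In the cells with neither gene group, Abcc9 was at 4706, 3949 and 2999 CPM in control mice S01, S02 and S03 and at 5160, 4889 and 4097 CPM in dKO mice S06, S08 and S09, the mice with at least 5 such cells. In contractile-gene cells it ran from 13.3 CPM in S04 to 636 CPM in S08, below all 6 of these values. Kcnj8 was at 349 ± 69.8 CPM in the cells with neither gene group (n = 6) and at 20.5 ± 28.4 CPM in contractile-gene cells (n = 9), against 20.1 ± 18.3 CPM in endothelial cells and 0.114 ± 0.147 CPM in rods.

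Rgs5, Pdgfrb and Notch3 were found in both of the larger groups, but the rule itself required this of many cells. A cell without Kcnj8 and Abcc9, as most contractile-gene cells were, was selected only if it held Rgs5, Pdgfrb and Notch3. The presence of these genes in contractile-gene cells therefore follows largely from the selection, and their levels are given as descriptions. Means here are over 9 mice for contractile-gene cells, 6 for the cells with neither gene group and 4 (S03, S06, S08 and S09) for fibroblast-gene cells. Rgs5 was at 5382 ± 1644, 7962 ± 1968 and 1073 ± 378 CPM in these groups, respectively. Pdgfrb, the receptor for endothelial PDGF-B, was at 828 ± 226, 1901 ± 435 and 452 ± 180 CPM. Notch3, the mural Notch receptor, was alike in contractile-gene cells (1501 ± 461 CPM) and in cells with neither gene group (1405 ± 222 CPM), with ranges over mice that overlapped, and was at 196 ± 164 CPM in fibroblast-gene cells.

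**Figure D2:**
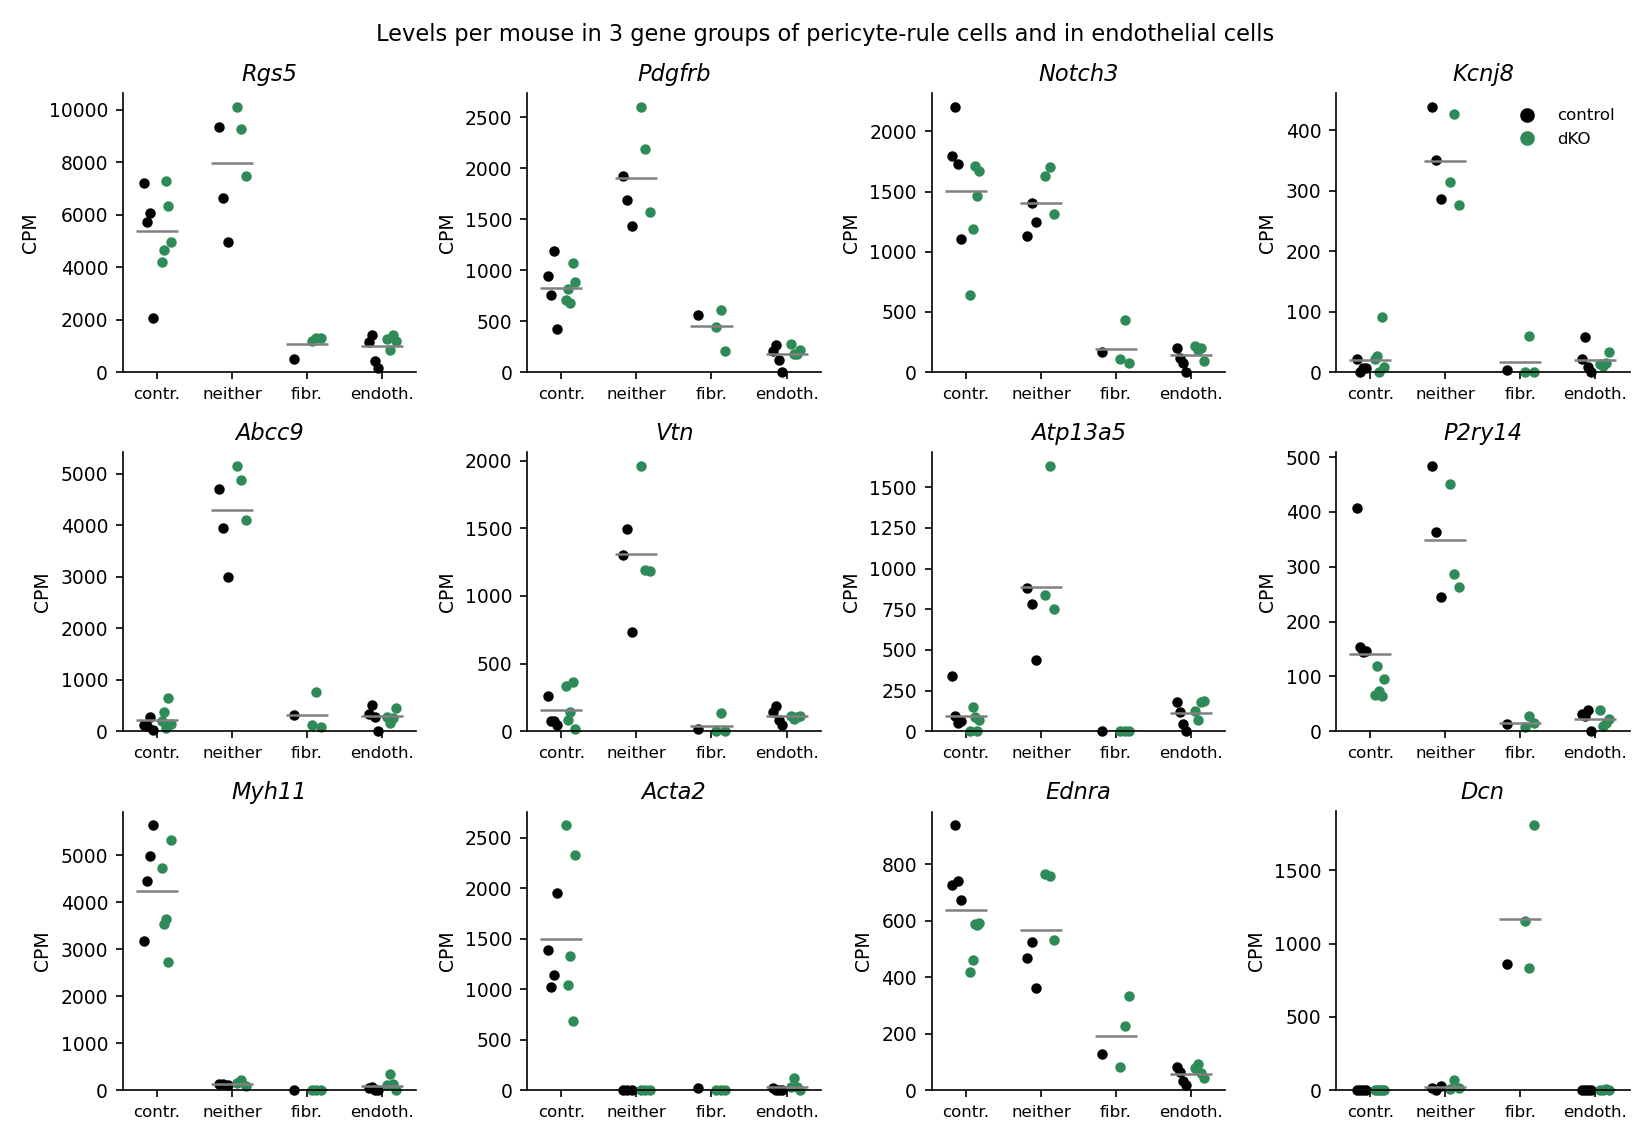
Level of 12 genes (CPM, y axis) in contractile-gene cells (contr.), cells with neither gene group, fibroblast-gene cells (fibr.) and endothelial cells (endoth.), with 1 point per mouse with at least 5 cells of the group (10 for endothelial cells), control in black and dKO in green, and a line at the mean. Abcc9, Kcnj8, Vtn and Atp13a5 stand high in the cells with neither gene group, whereas Myh11 and Acta2 stand high in contractile-gene cells and Dcn in fibroblast-gene cells.

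Several genes outside both the rule and the split, though not every further pericyte marker, followed the cells with neither gene group. Vtn was at 1312 ± 406 CPM there, against 154 ± 129 CPM in contractile-gene and 36.1 ± 64.3 CPM in fibroblast-gene cells. Atp13a5, a transport ATPase and marker of brain pericytes, was at 886 ± 397 CPM against 94.6 ± 104 CPM in contractile-gene cells. P2ry14, a receptor for UDP-glucose, was at 349 ± 101 against 141 ± 106 CPM, with values that overlapped between the groups because S01 had 406 CPM in its 5 contractile-gene cells. Grm3, a metabotropic glutamate receptor, had the highest ratio to the other groups, at 697 ± 389 CPM against 21.2 ± 39.97 CPM in contractile-gene cells. Higd1b ran from 22.1 to 171 CPM in contractile-gene cells and from 13.5 to 182 CPM in cells with neither gene group. Over all pericyte-rule cells, Mcam and Gper1 were highest in S04, S05 and S07, where most were contractile-gene cells. Mcam was at 460, 442 and 541 CPM in these mice and at 147 to 309 CPM in the others. Gper1 was at 104, 155 and 101 against 29.2 to 89.2 CPM.

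Contractile genes that had not been used for the split followed it. Lmod1, an actin nucleator of smooth muscle, was at 422 ± 120 CPM in contractile-gene cells and 30.7 ± 20.3 CPM in cells with neither gene group. Myocd, the coactivator that switches on the smooth muscle programme, was at 538 ± 262 against 12.3 ± 12.5 CPM, and Tpm1, a tropomyosin, at 1764 ± 603 against 299 ± 81.7 CPM. Of the 15 contractile genes listed, 15 had a higher mean in pericyte-rule than in endothelial cells, 11 of them in each of 8 mice. Some contractile transcripts reached all groups. Mylk, the kinase that starts contraction, was at 2147 ± 505, 778 ± 199 and 440 ± 36.1 CPM in contractile-gene cells, cells with neither gene group and fibroblast-gene cells, and Cald1 was at 3013 ± 611, 1931 ± 451 and 1400 ± 436 CPM. Cnn1 had 9 UMIs and Actg2 6 UMIs in all pericyte-rule cells together.

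The fibroblast-gene cells carried matrix and signalling genes of their own. Dcn, used for the split, was at 859 CPM in S03, 1157 in S06, 837 in S08 and 1812 in S09 and at 0 in the contractile-gene cells of all 9 mice. Of genes not used for it, Fbn1, which encodes fibrillin-1, was at 894 ± 460 CPM against 31.7 ± 30.4 CPM in contractile-gene cells and 41.0 ± 67.8 CPM in cells with neither gene group. Pdpn, which encodes podoplanin, was at 633 ± 213 CPM against 8.30 ± 8.42 and 11.1 ± 12.3 CPM. The list of 18 fibrillar matrix and fibrosis genes summed to 61.0 per 10,000 UMIs, close to the 61.1 of cells chosen by the fibroblast rule, against 9.2 in contractile-gene cells and 7.5 in cells with neither gene group. The list holds Col1a1 and Col1a2, which were used for the split, and 50 of the 66 cells are themselves among the fibroblast-rule cells.

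Inflammatory and immediate early transcripts took a larger share of the UMIs in the same cells than in the other groups, as they did in fibroblast-rule cells. The inflammation list of 26 genes summed to 72.5 per 10,000 UMIs in fibroblast-gene cells, 15.2 in contractile-gene cells, 13.3 in cells with neither gene group and 26.6 in endothelial cells. Icam1, the leukocyte adhesion molecule, was at 534 ± 63.8 CPM in fibroblast-gene cells and 0.490 ± 1.47 CPM in contractile-gene cells. The transcription factor gene Stat3 was at 1520 ± 256 CPM against 442 ± 178 CPM in contractile-gene cells and 174 ± 68.9 CPM in cells with neither gene group. The immediate early and stress list of 18 genes summed to 117, 49.8 and 43.7 per 10,000 UMIs in fibroblast-gene cells, contractile-gene cells and cells with neither gene group. In cells chosen by the fibroblast rule, the inflammation list summed to 67.2 and the immediate early list to 108.8 per 10,000 UMIs.

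The makeup of the pericyte-rule cells varied widely among mice of the same group. Contractile-gene cells were 5 of 15 in S01, 9 of 20 in S02, 11 of 51 in S03 and 13 of 16 in S04 among control mice. Among dKO mice they were 5 of 5 in S05, 13 of 34 in S06, 17 of 19 in S07, 14 of 56 in S08 and 15 of 38 in S09. The 3 mice that stood apart, S04, S05 and S07, had 81.3 to 100% contractile-gene cells and 0 fibroblast-gene cells, whereas the other 6 mice had 21.6 to 45.0% and between 3 and 23 fibroblast-gene cells each. The low depth of these mice was that of all their cells. Their pericyte-rule cells had medians of 8076, 9277 and 11951 UMIs, against 7180.5 to 11174.5 in the other mice. The part of rod share or depth in this makeup was not tested.

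**Figure D3:**
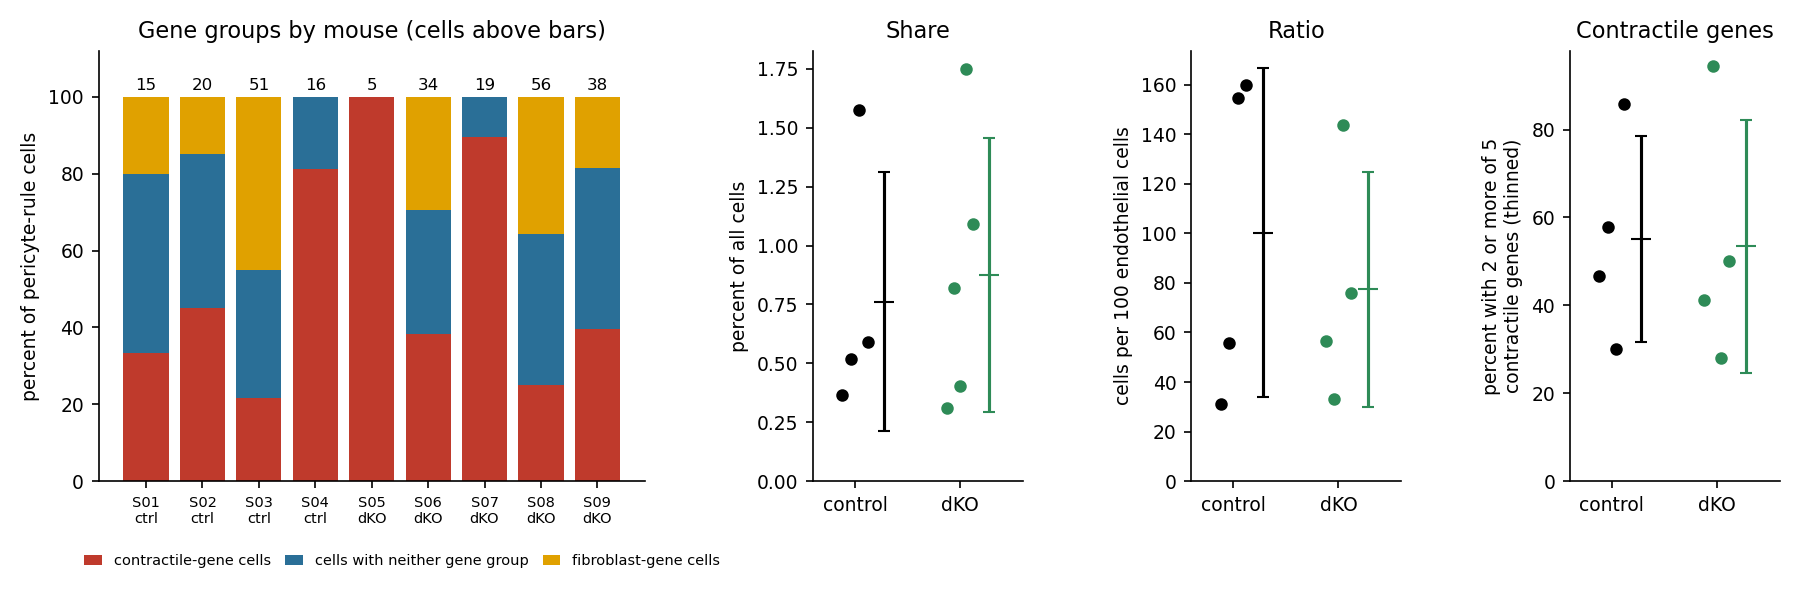
The left panel gives, for each mouse, the percent of pericyte-rule cells that were contractile-gene cells, cells with neither gene group or fibroblast-gene cells, with the number of cells above each bar, and the other panels give 1 point per mouse for the share of all cells, the number per 100 endothelial cells and the percent with at least 2 of 5 contractile genes after thinning, with mean and SD bars (black, control; green, dKO). S04, S05 and S07 have 81.3 to 100% contractile-gene cells, and in the right 3 panels the control and dKO points overlap.

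Several channel genes were at similar levels in contractile-gene cells and in cells with neither gene group. Cacna1c, the L-type calcium channel that couples depolarization to contraction, was at 3090 ± 519 CPM in contractile-gene cells and 2675 ± 617 CPM in cells with neither gene group, against 193 ± 117 CPM in fibroblast-gene cells and 294 ± 150 CPM in endothelial cells. Ano1, the calcium-activated chloride channel that depolarizes mural cells, was at 1369 ± 553 and 1257 ± 218 CPM in both mural groups and 146 ± 73.3 CPM in endothelial cells. Gjc1, which encodes the gap junction protein connexin 45, was at 371 ± 153 and 482 ± 66.2 CPM. For these genes the levels of contractile-gene cells and of cells with neither gene group overlapped between mice.

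Other channels divided the groups in opposite directions. Trpc4, a cation channel opened by receptor signalling, was at 292 ± 85.4 CPM in cells with neither gene group and 92.6 ± 62.7 CPM in contractile-gene cells, and the values of the mice did not overlap. Trpc6 showed the opposite order, at 164 ± 93.5 CPM in contractile-gene cells and 44.2 ± 29.9 CPM in cells with neither gene group. Ryr2, the calcium release channel of the sarcoplasmic reticulum, was at 421 ± 224 against 39.9 ± 25.4 CPM. Kcnma1, the large-conductance potassium channel, was at 585 ± 272 against 205 ± 268 CPM, with values that overlapped and 730 CPM in the cells with neither gene group of S03. Of the 21 genes in the ion channel and calcium list, 15 had a higher mean in pericyte-rule than in endothelial cells and 10 were higher in all 8 mice.

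Receptors for vasoactive signals, and the cyclic nucleotide machinery behind them, were prominent. Ednra, the receptor that mediates constriction by endothelin-1, was at 521 ± 104 CPM in pericyte-rule and 58.8 ± 25.7 CPM in endothelial cells, with 636 ± 157 CPM in contractile-gene cells and 568 ± 162 CPM in cells with neither gene group. Adora2a, the adenosine receptor that relaxes vessels, was at 40.8 ± 12.4 against 7.63 ± 4.76 CPM. P2rx1, an ATP-gated channel, was seen in contractile-gene cells (34.3 ± 41.8 CPM) and was at 0 in the other groups. All 3 subunits of soluble guanylate cyclase, the nitric oxide receptor, were higher in pericyte-rule than in endothelial cells in all 8 mice: Gucy1a1 at 418 ± 105 against 71.0 ± 28.6 CPM, Gucy1b1 at 392 ± 100 against 65.9 ± 25.5 CPM and Gucy1a2 at 718 ± 133 against 114 ± 56.1 CPM. Prkg1, the kinase that cyclic GMP activates, was detected in 100% of pericyte-rule cells, at 5599 ± 774 against 1576 ± 472 CPM, but rods also held 235 ± 58.7 CPM.

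Phosphodiesterases end cyclic nucleotide signals. Pde3a was at 4256 ± 807 CPM in contractile-gene cells, 1034 ± 301 CPM in cells with neither gene group and 205 ± 118 CPM in endothelial cells. Pde5a, the target of sildenafil, was at 848 ± 220, 510 ± 101 and 114 ± 27.5 CPM in the same order. Npr1, the receptor for atrial natriuretic peptide, was lower than in endothelial cells, at 1.19 ± 2.36 CPM in pericyte-rule and 32.3 ± 13.2 CPM in endothelial cells. Adrenergic receptors Adra1a, Adra1d and Adra2a were each at a mean under 5 CPM in pericyte-rule cells, too low to compare at this depth. Of the 26 vasoactive genes, 13 were higher than in endothelial cells in all 8 mice.

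Genes of the PDGF pathway were divided between pericyte-rule and endothelial cells. Pdgfb, the endothelial ligand of Pdgfrb, was at 22.2 ± 20.5 CPM in pericyte-rule and 230 ± 59.0 CPM in endothelial cells, lower in all 8 mice. Pdgfd, a further ligand of that receptor, was at 530 ± 144 CPM in endothelial cells, 468 ± 227 CPM in contractile-gene cells and 28.0 ± 31.1 CPM in cells with neither gene group. Pdgfa was at 140 ± 70.3 CPM in contractile-gene cells and its receptor Pdgfra at 649 ± 209 CPM in fibroblast-gene cells, a gene used to define them.

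For Notch, the ligand genes Dll4 and Jag2 and the receptor gene Notch4 were lower in pericyte-rule than in endothelial cells in all 8 mice, at 10.4 ± 18.9 against 142 ± 99.5 CPM, 13.2 ± 13.5 against 136 ± 32.0 CPM and 24.0 ± 18.7 against 156 ± 54.5 CPM. Jag1, the ligand tied to smooth muscle maturation, did not divide them, at 222 ± 67.2 against 201 ± 159 CPM. The target genes Heyl and Hey2 were higher in all 8 mice, at 155 ± 25.6 against 17.2 ± 9.39 CPM and 76.3 ± 33.3 against 18.0 ± 7.36 CPM, while the target gene Hey1 was lower, at 6.85 ± 9.08 against 37.1 ± 29.1 CPM.

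Angpt1, the angiopoietin that steadies endothelium through the receptor encoded by Tek, was at 368 ± 180 CPM in pericyte-rule and 19.1 ± 17.3 CPM in endothelial cells. Its level was 998 ± 430 CPM in fibroblast-gene cells, 316 ± 181 CPM in contractile-gene cells and 91.7 ± 77.8 CPM in cells with neither gene group, so the group with the most pericyte markers had the lowest mean. Tek itself was at 53.1 ± 63.0 against 850 ± 198 CPM. Sphingosine phosphate receptors were divided likewise, with S1pr3 at 185 ± 55.8 against 37.3 ± 20.9 CPM and S1pr1 at 25.8 ± 26.5 against 341 ± 52.4 CPM.

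For TGF-beta and BMP signalling, the ligand genes Tgfb3 and Bmp5 were higher on the mural side and the genes Bmpr2 and Id1 on the endothelial side. Of the 22 genes in this list, 9 had a higher mean in pericyte-rule than in endothelial cells. In all 8 mice, 4 were higher and 6 lower. Tgfb3 was at 271 ± 145 CPM in pericyte-rule and 7.54 ± 6.32 CPM in endothelial cells, with 429 ± 188 CPM in contractile-gene cells. Ltbp1, which holds latent TGF-beta in the matrix, was at 1128 ± 459 CPM in contractile-gene cells, 185 ± 81.7 CPM in cells with neither gene group and 75.2 ± 68.3 CPM in endothelial cells. Bmp5 was at 305 ± 107 CPM in cells with neither gene group against 35.8 ± 19.9 CPM in endothelial cells. The receptor gene Bmpr2 and the BMP target gene Id1 were lower in pericyte-rule cells in all 8 mice, at 296 ± 50.3 against 761 ± 151 CPM and 8.01 ± 7.54 against 66.3 ± 22.7 CPM.

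**Figure D4:**
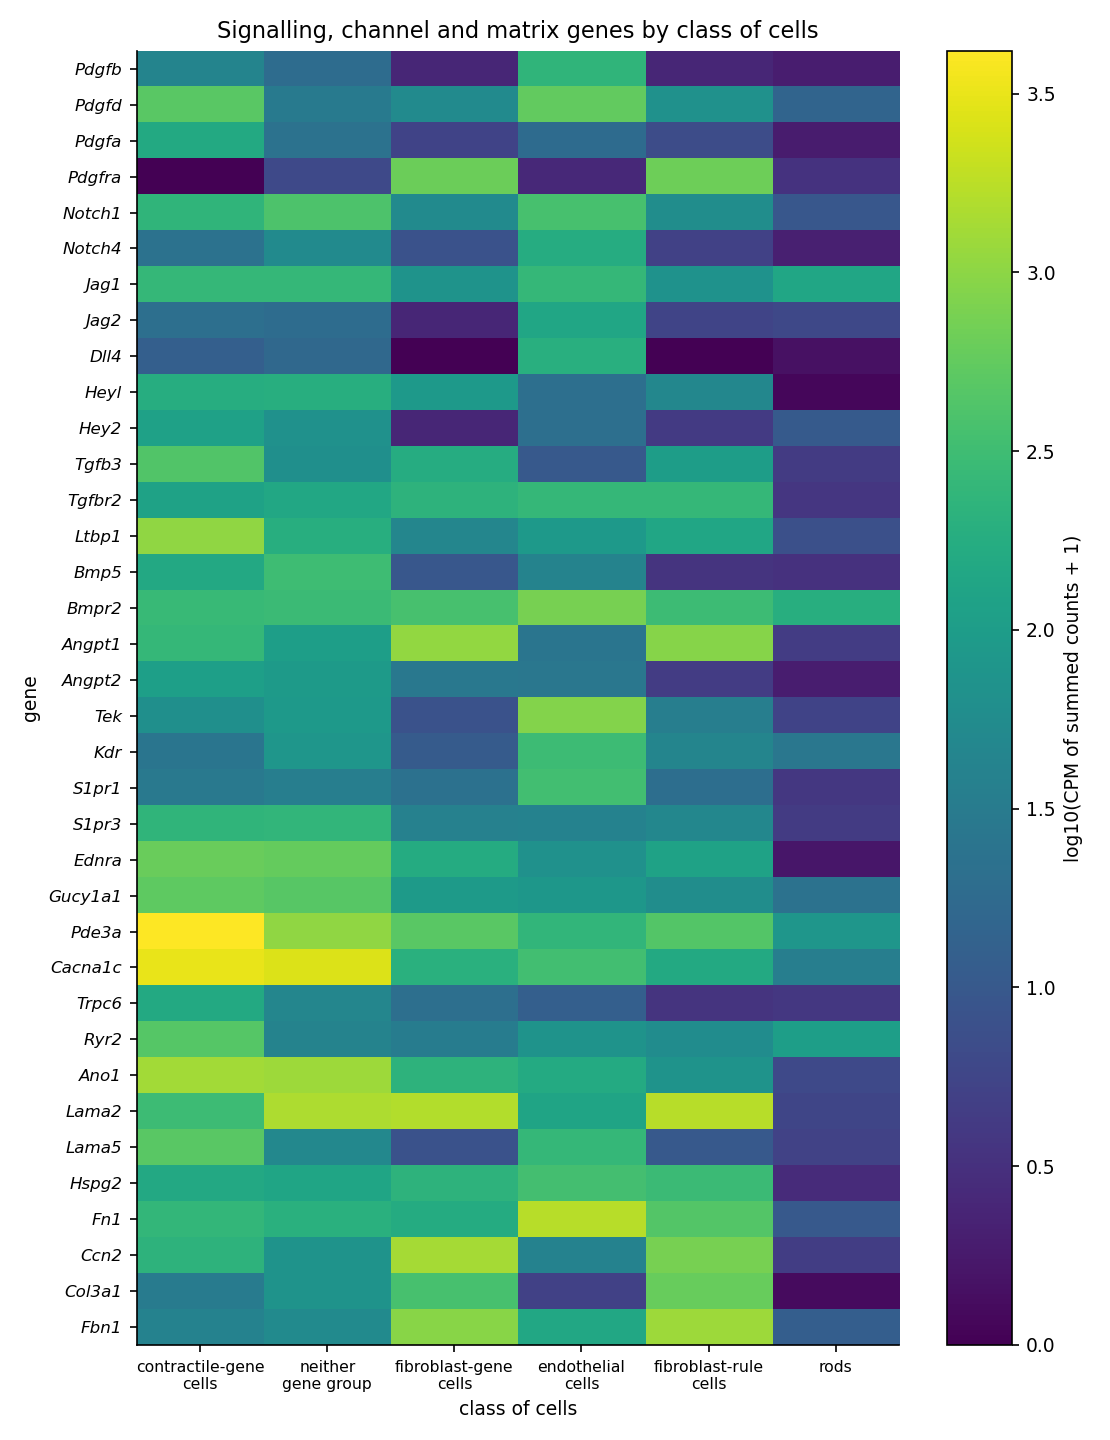
Colour gives log10 of the CPM of summed counts plus 1 for 36 signalling, channel and matrix genes (rows) in the 3 groups of pericyte-rule cells, endothelial cells, cells chosen by the fibroblast rule and rods (columns). Pdgfb, Dll4, Jag2, Tek and Kdr are brightest in endothelial cells, Heyl, Cacna1c, Ano1 and Ednra in the contractile-gene cells and cells with neither gene group, and Angpt1, Ccn2 and Fbn1 in the 2 fibroblast columns.

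The basement membrane genes showed which laminin chains each group made. Lama2 was at 1455 ± 405 CPM in cells with neither gene group, 1565 ± 170 CPM in fibroblast-gene cells and 348 ± 174 CPM in contractile-gene cells, whereas Lama5 was at 51.0 ± 15.6, 6.19 ± 7.91 and 500 ± 212 CPM. Among pericyte-rule cells, the laminin alpha 2 and alpha 5 chain genes thus had opposite orders. Lamc1, the common gamma chain gene, was at 632 ± 109 against 285 ± 57.9 CPM in endothelial cells, and Col4a3, a collagen IV chain gene, at 168 ± 48.0 against 47.9 ± 15.4 CPM. The collagen IV genes Col4a1 (460 ± 82.7 against 463 ± 102 CPM) and Col4a2 (378 ± 107 against 478 ± 101 CPM) were near the endothelial level, and Fn1, which encodes fibronectin, was at 181 ± 170 against 1554 ± 419 CPM. Of 21 basement membrane genes, 7 were higher and 2 lower than in endothelial cells in all 8 mice.

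Transporter genes differed between the groups, and transcription factor genes were compared with endothelial cells. Slc38a11 was at 1160 ± 313 CPM in contractile-gene cells, 724 ± 188 CPM in cells with neither gene group and 5.51 ± 11.01 CPM in fibroblast-gene cells. Slco3a1, an organic anion transporter gene, was at 672 ± 242, 1598 ± 348 and 114 ± 42.9 CPM, and Slc16a12, a monocarboxylate transporter gene, at 41.1 ± 22.4, 367 ± 112 and 19.3 ± 38.5 CPM. Of the transcription factor genes, Tbx18, which marks mural cells in many organs, was at 60.6 ± 17.4 CPM in pericyte-rule and 4.88 ± 3.44 CPM in endothelial cells, Nr2f2 at 222 ± 51.5 against 47.1 ± 24.8 CPM and Zic1 at 95.7 ± 29.3 against 16.3 ± 15.1 CPM. Foxf2, named in brain pericytes, was lower than in endothelial cells in all 8 mice, at 20.5 ± 10.3 against 38.1 ± 9.32 CPM. Of 12 such factors 8 were higher in all 8 mice.

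Of the adhesion genes, Itga7 and Itga4 were at 245 ± 89.5 against 25.04 ± 13.5 CPM and 168 ± 68.2 against 25.3 ± 21.4 CPM in pericyte-rule and endothelial cells, and both were under 10 CPM on average in fibroblast-gene cells. Itga8 was at 219 ± 144 CPM in contractile-gene cells and 8.49 ± 11.5 CPM in cells with neither gene group. Cdh2, which encodes N-cadherin, the junction protein between pericytes and endothelium, was at 856 ± 454 CPM in cells with neither gene group, 147 ± 103 CPM in contractile-gene cells and 337 ± 142 CPM in endothelial cells.

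The first comparison of dKO with control mice asked whether the number of pericyte-rule cells differed. As a share of all cells they were 0.363% in S01, 0.517% in S02, 1.58% in S03 and 0.590% in S04, and 0.309% in S05, 0.821% in S06, 0.404% in S07, 1.75% in S08 and 1.09% in S09. The exact binomial 95% intervals were 1.18 to 2.07% for S03, 1.32 to 2.27% for S08 and 0.100 to 0.719% for S05. For pericyte-rule cells as selected, mice of the same group thus differed beyond counting error. Of these cells, 23 of 51 in S03 and 20 of 56 in S08 were fibroblast-gene cells. Without fibroblast-gene cells the shares were 0.291, 0.440, 0.865 and 0.590% in S01 to S04. In S05 to S09 they were 0.309, 0.580, 0.404, 1.125 and 0.890%, for which no interval was computed. Over all pericyte-rule cells the means were 0.762 ± 0.551% (SD, n = 4) and 0.875 ± 0.583% (SD, n = 5), and the two-sided exact permutation test over mice gave p = 0.778 (adjusted p = 0.943 over 3 such tests). The difference of 0.11 percentage points was 0.402 without S04, S05 and S07 (exact permutation p = 0.500). That setting left S01 to S03 against S06, S08 and S09, too few mice for the test to reach a p under 0.05. With cells other than rods as the total the difference was -0.704 (exact permutation p = 0.746). It rested on S04, where the cells were 6.43% of 249 such cells, the highest of the 9 mice. Without S04 it was 0.561 (exact permutation p = 0.357).

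Relative to endothelial cells, a measure that does not depend on rods, pericyte-rule cells numbered 31.3, 55.6, 155 and 160.0 per 100 in S01 to S04 and 56.7, 33.3, 144 and 76.0 per 100 in S06 to S09. S05 had 4 endothelial cells and was not used, and the value of S04 rests on 10 endothelial cells, the minimum required. The means were 100.3 ± 66.5 (SD, n = 4) and 77.4 ± 47.5 (SD, n = 4), and the exact permutation test gave p = 0.686 (two-sided, adjusted p = 0.943). The highest and the lowest value were both from control mice, and without S04, S05 and S07 the difference of -22.9 became 11.6 (exact permutation p = 0.700).

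The share of cells with contractile transcripts was then compared at equal depth. Each cell with at least 4000 UMIs was thinned to that number, and cells with fewer were left out. This kept 15, 19, 50 and 14 cells in S01 to S04 and 34, 18, 50 and 34 in S06 to S09. Cells with at least 2 of the 5 contractile genes then made up 46.7, 57.9, 30.0 and 85.7% in S01 to S04 and 41.2, 94.4, 28.0 and 50% in S06 to S09. Unthinned, over all pericyte-rule cells, the shares were 46.7, 60.0, 35.3 and 81.3%, and 50, 89.5, 35.7 and 55.3%. In rods, which should lack these genes, the thinned share was 0.0188% of 10619 cells and the unthinned share 0.0907% of 16530. The median of all these rods was 4806 UMIs, against 8905 in pericyte-rule cells. The means of the thinned shares in pericyte-rule cells were 55.1 ± 23.4% in control and 53.4 ± 28.8% in dKO mice (SD, n = 4 each). The exact permutation test gave p = 0.943 (two-sided, adjusted p = 0.943). The highest share of either group came from a mouse that stood apart, S04 or S07, and without S04, S05 and S07 the difference of -1.66 percentage points was -5.13 (exact permutation p = 0.700). All 3 tests compared 4 with 4 or 5 mice whose values spread over several-fold, so differences smaller than this spread were not detectable. Without S04, S05 and S07, the mice left were too few for any of the 3 to reach a p under 0.05.

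Gene levels were compared next, with the UMIs of pericyte-rule cells summed per mouse for 4 control and 4 dKO mice and tested across all genes in edgeR (quasi-likelihood, p-values adjusted by Benjamini-Hochberg). The genes that chose the cells are given first, as a description, since selection required them: Rgs5 was at 6572, 5285, 3341 and 2677 CPM in S01 to S04 and at 4956, 7183, 5384 and 5243 CPM in S06 to S09, a log2 fold change of 0.33 ± 0.30 (SE). Pdgfrb, Kcnj8, Abcc9 and Notch3 had log2 fold changes of 0.14 ± 0.27, -0.31 ± 0.48, 0.04 ± 0.54 and 0.12 ± 0.24. The control and dKO values of all 5 markers overlapped.

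No gene passed. Of 4900 genes tested, 0 had an adjusted p under 0.05 (0%), and 74 (1.51%) had an unadjusted p under 0.05 in edgeR, 34 higher (0.694%) and 40 lower (0.816%) in dKO. limma-voom and DESeq2 also called 0, with 96 and 55 genes under an unadjusted p of 0.05. Values of both groups did not overlap for 67 genes (1.37%). The genes of lowest p are given below as measurements, with an adjusted p of 0.9997 for each.

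Arhgap15 (chr2:43638815-44285967, plus strand, GRCm39), a Rac GTPase-activating protein gene, had the largest fold among the 5 higher in dKO, at 13.0, 0, 5.24 and 6.13 CPM in S01 to S04 and 46.7, 84.6, 41.7 and 49.8 CPM in S06 to S09, a log2 fold change of 3.12 ± 0.55. The control values were near the floor, a few molecules at most among 153843, 165197, 572891 and 163212 summed UMIs in S01 to S04. Rps6ka2, a ribosomal S6 kinase gene, was at 26.0, 42.4, 31.4 and 42.9 against 61.6, 71.9, 77.1 and 84.1 CPM, a log2 fold change of 1.03 ± 0.28. Acsl4, an acyl-CoA synthetase gene on chromosome X, was at 32.5, 30.3, 40.1 and 36.8 against 57.4, 80.3, 112 and 59.2 CPM. In these 3 genes every dKO mouse was above every control mouse.

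Csmd3 and Ncam2, both better known from neurons, were less even. Csmd3 was at 19.5, 42.4, 19.2 and 18.4 CPM in S01 to S04 and 97.7, 190, 110 and 24.9 CPM in S06 to S09, so that S09 lay below S02 (log2 fold change 2.09 ± 0.58). Ncam2, a neural adhesion molecule gene, was at 0, 30.3, 19.2 and 0 against 51.0, 67.6, 39.6 and 128 CPM (2.25 ± 0.70), with no overlap.

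Of the 5 lower in dKO, Cand1 (chr10:119034720-119076024, minus strand, GRCm39), which encodes the exchange factor of cullin ubiquitin ligases, was at 84.5, 66.6, 69.8 and 110 CPM in S01 to S04 and 42.5, 29.6, 31.2 and 28.0 CPM in S06 to S09, a log2 fold change of -1.32 ± 0.30. Ldah, a lipid droplet hydrolase gene, was at 65.0, 54.5, 52.4 and 73.5 against 34.0, 21.1, 29.2 and 21.8 CPM. Pvr, the poliovirus receptor gene and a nectin-like adhesion molecule, was at 58.5, 42.4, 48.9 and 55.1 against 23.4, 21.1, 24.99 and 31.2 CPM. Values of these 3 genes did not overlap between groups.

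H3f3a, which encodes the replacement histone H3.3, was at 78.0, 127, 61.1 and 153 CPM in S01 to S04 and 34.0, 42.3, 49.99 and 56.1 CPM in S06 to S09, a log2 fold change of -1.18 ± 0.35 and also without overlap. Dscam, a neural adhesion molecule gene, was at 52.0, 115, 143 and 141 against 57.4, 21.1, 33.3 and 43.6 CPM (-1.55 ± 0.39), with S01 below S06.

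**Figure D5:**
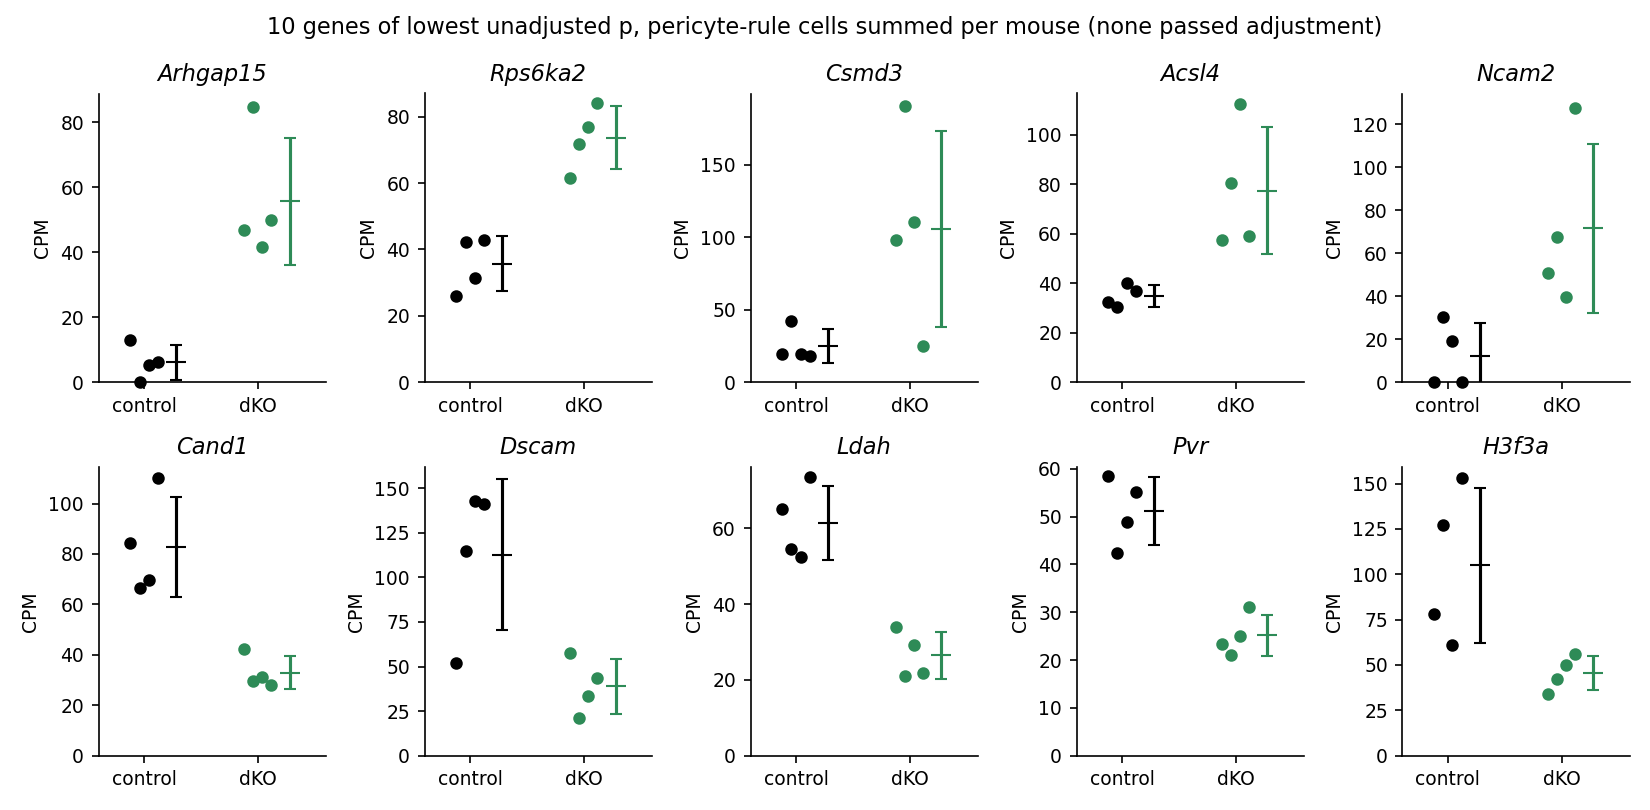
CPM of summed pericyte-rule cells (y axes, each from 0) of the 10 genes of lowest unadjusted p, 5 higher in dKO (top) and 5 lower (bottom), with 1 point per mouse, 4 control (black) and 4 dKO (green), and mean with SD bars. The groups do not overlap except for Csmd3, where S09 lies at 24.9 CPM, and Dscam, where S01 lies at 52.0 CPM, and none of the 10 passed adjustment.

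By function, no gene of any list passed adjustment. In the contractile list 5 of 12 tested genes had a positive log2 fold change (median -0.15), in the basement membrane list 16 of 21 (0.10), in the ion channel and calcium list 11 of 15 (0.12) and in the vasoactive list 8 of 15 (0.02), against 2339 of 4900 genes overall (median -0.02). The Notch list had 3 of 8 (-0.10), the PDGF list 4 of 8 (-0.08), the TGF-beta and BMP list 9 of 17 (0.07) and the angiopoietin and VEGF list 5 of 6 (0.17). The fibrillar matrix list had 5 of 15 (-0.12), the transporters 5 of 8 (0.24), the transcription factors 5 of 8 (0.16), adhesion 8 of 11 (0.10), the further pericyte markers 7 of 10 (0.09) and inflammation 7 of 14 (-0.06). Over these lists an unadjusted p under 0.05 was seen for Cdh2 (higher, 0.65 ± 0.28) and Slc1a5 (lower, -0.98 ± 0.40), and an adjusted p under 0.05 for 0 genes. The medians were unstable when 1 mouse was left out. That of the contractile list was 0.49 without S04, 0.05 without S08 and -0.31 without S07, that of the fibrillar matrix list 0.35 without S03 and -0.54 without S08, that of the angiopoietin and VEGF list 0.50 without S03 and -0.09 without S08, and that of the basement membrane list 0.26 without S03 and -0.005 without S04. The transcription factor, transporter and Notch medians kept their sign, and the other lists of this paragraph each changed sign without at least 1 mouse.

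In the immediate early list, the count was 1 of 13 tested genes positive (median -0.28, from -0.48 without S09 to -0.10 without S07). Its sum per 10,000 UMIs was 87.8, 55.8, 87.6 and 37.4 in S01 to S04 and 65.7, 13.8, 66.5 and 74.7 in S06 to S09, so the groups overlapped and S07 was lowest. Fos was at 1736, 896, 1115 and 729 CPM against 1045, 241, 989 and 1056 CPM, and 0 genes of the list had an unadjusted p under 0.05. The glucocorticoid list, 10 genes, had 2 of 8 positive (median -0.26, and -0.05 without S02, -0.06 without S03, -0.05 without S07 and -0.43 without S08), and in it too S07, at 9.8 per 10,000 UMIs, was lowest.

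The genes that the study named in its own sequencing results were followed in these cells. Trpm3, host of miR-204, was at 150, 460, 328 and 79.7 CPM in S01 to S04 and 470, 203, 437 and 178 CPM in S06 to S09, a log2 fold change of 0.32 ± 0.51. Trpm1, host of miR-211, was at 71.5, 54.5, 298 and 36.8 against 40.4, 84.6, 45.8 and 34.3 CPM (-1.35 ± 0.64), with the control mean set by S03 and a log2 fold change of -0.11 without it. Rn7sk, a noncoding RNA that restrains transcription elongation, was at 13.0, 48.4, 50.6 and 12.3 against 85.0, 495, 22.9 and 65.4 CPM (2.22 ± 0.92, unadjusted p = 0.0369 in edgeR), with the dKO mean set by S07 and a log2 fold change of 0.70 without it. Adamts10 (-0.06 ± 0.38) overlapped between groups, and Gdf11, Mlec, Gm47469, Gm48606 and Gm45895 were under the filter on low counts. Rpe65 had 69 UMIs in all pericyte-rule cells.

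Narrower selections of cells were also tested, those by gene group having been chosen after seeing the data. Contractile-gene cells alone, in 9 mice, gave 0 of 2851 genes (107 under an unadjusted p of 0.05), cells with neither gene group, in 3 against 3 mice, 0 of 2670 (147), and all cells but the fibroblast-gene cells 0 of 4383 (95). Without S04, S05 and S07 the count was 0 of 6094 (155). Cells with at least 4 of the 5 markers, available from S02 and S03 against S06, S08 and S09, gave 5 of 4859 genes, all lower in dKO: Ccn2, which encodes a matricellular protein (log2 fold change -2.91 ± 0.33), Dlg2 (-2.39 ± 0.29), Pax6 (-4.66 ± 0.60), Tox (-3.38 ± 0.44) and Pde1c (-2.75 ± 0.38), with adjusted p from 0.0229 to 0.0331. Over all pericyte-rule cells, Ccn2 was at 624, 472, 770 and 208 CPM in S01 to S04 and 450, 283, 404 and 308 CPM in S06 to S09, and the groups overlapped. Pax6 and Dlg2 are genes of retinal neurons, and that selection left 2 control mice.

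Last, the change in pericyte-rule cells was set against that in endothelial cells of the same mice, with a term for each mouse. Of 8283 genes, 0 passed an adjusted p under 0.05 in edgeR (0%), and 174 (2.1%) had an unadjusted p under 0.05, 75 of them with the larger value in pericyte-rule cells (0.905%) and 99 with the smaller (1.2%). limma-voom called 0 as well, with 233 under an unadjusted p of 0.05. The 5 genes of lowest p were Lrrc4c (difference of log2 fold changes 2.14 ± 0.45), Pth1r (-2.38 ± 0.53), Pcx (1.99 ± 0.52), Pvr (-1.58 ± 0.41) and Csmd3 (3.32 ± 0.90), each with an adjusted p of 1. Pvr, for example, averaged 51.2 ± 7.12 CPM in control and 25.2 ± 4.29 CPM in dKO pericyte-rule cells and 32.9 ± 12.3 and 46.1 ± 16.9 CPM in endothelial cells. Pth1r, the parathyroid hormone receptor gene, averaged 55.9 ± 35.7 and 30.7 ± 12.3 CPM in pericyte-rule cells and 4.197 ± 4.57 and 12.4 ± 4.94 CPM in endothelial cells. For Lrrc4c, which encodes a synaptic adhesion protein, the means were 85.2 ± 59.9 and 176 ± 60.9 CPM and 209 ± 110 and 112 ± 67.4 CPM, respectively.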

How the data were processed

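Retinal cells were dissociated with papain, fixed and barcoded by split-pool ligation (Parse Evercode), and 8 sublibraries were sequenced. The authors mapped reads to GRCm39 with the Parse split-pipe software and deposited whole-number UMI counts per gene and cell, 37725 genes by 31089 cells, after removing cells and genes of low content. The submitters' processing notes name R 4.2.2 and Seurat 4.3.0. Counts were used as deposited, with the deposited sample label of each cell. The authors' clusters were not used. No doublet caller was run, and cells with 3 or more endothelial genes were left out as an alternative.

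The cells, gene lists and tests were chosen with earlier results of these data known. The mouse was the replicate, although the study tested cells with MAST, and p-values measure the spread between mice. Because the labels give S06 and S07 an identical animal number, both were also summed as 1 mouse. They were otherwise kept as separate mice. Their pericyte-rule cells held 468 and 8 Xist UMIs and 4 and 76 Y-linked UMIs, respectively. UMIs were summed over the pericyte-rule cells of mice with at least 10, filtered (filterByExpr), TMM-normalized and tested by edgeR 4.0.16 (quasi-likelihood), with limma 3.58.1 and DESeq2 1.42.0 as alternatives in R 4.3.3. Shares were compared with exact permutation tests over mice in Python 3.11.15 (numpy 2.4.6, scipy 1.17.1, pandas 2.3.3). Exact binomial intervals cover counting error only. Summed depth was 45291 to 572891 UMIs per mouse. The scripts were tested on simulated data.

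Genes named in the comparison were the 5 of lowest p in each direction, since fewer than 5 passed, the genes of the lists described, the genes named by the study, the 20 genes of highest ratio to other cells with at least 50 CPM and UMIs in every compared mouse, and the 5 of lowest p for the difference to endothelial cells. Genes named for a group of cells, and those called under an alternative setting, were chosen after their values were seen. Positions of 390 of 390 genes were taken from the GRCm39 annotation. Alternatives numbered 28 planned and 5 chosen after seeing the data. Some genes of the lists are not reported here by name.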

Additional observations from a re-analysis of the deposited data

Results flagged for a closer look

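In 62 sets of 4 mice, or 5 for the dKO share of all cells (the control or the dKO values of a measure), the mouse farthest from the rest was compared with the range of the set by Dixon's criterion, and 8 stood out. Chance alone flags about 1 in 20 such sets if they are independent, but these sets reuse the same mice. Of the 8, 6 belonged to S04 or S07. Rod markers took 0.477% of the UMIs of pericyte-rule cells in S04 among control mice and 0.593% in S07 among dKO mice. Acta2 was at 1795 CPM in S04, above the other control mice. In S07, Vtn was lowest of the dKO mice at 266 CPM, Dcn was at 0 CPM and Rn7sk was highest at 495 CPM. The other 2 were Csmd3, at 42.4 CPM in S02, and Trpm1, at 298 CPM in S03, each the highest of the control mice.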

How the results depend on the processing

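The count of 0 genes between dKO and control was also obtained with each mouse left out in turn (0 to 0, with 60 to 129 genes under an unadjusted p of 0.05), and it moved to 5 with at least 4 of 5 markers and to 13 of 20377 with no filter on low counts. The 13 included Arhgap15, Csmd3, Ncam2 and Rn7sk and the cone genes Arr3, Cngb3, Opn1sw and Opn1mw, and the cause was not tested. The count for the difference to endothelial cells moved to 16 of 24864 with no filter on low counts, with Lrrc4c and Csmd3 among them, and was 0 with each mouse left out. The difference in share of all cells ran from -0.106 to 0.38 percentage points with each mouse left out and was -0.70 with cells other than rods as the total, or 0.561 of these without S04 and 0.567 without S04, S05 and S07, both chosen after seeing the data. The number per 100 endothelial cells ran from -45.97 to -3.05 with each mouse left out and was 11.6 without S04, S05 and S07. The share with contractile transcripts ran from -15.3 to 8.55 percentage points with each mouse left out, and was 0.644 with a marker sum of at least 2, 1.81 in unthinned cells and 5.33 with at least 1 of the 5 genes. No exact permutation test of a share passed under any setting run, the lowest p being 0.200. Settings that left S01 to S03 against S06, S08 and S09, or fewer mice, could not reach a p under 0.05 whatever the values. Among named genes, signs turned for Dscam (0.35) and Trpm1 (0.34) with a marker sum of at least 2, and for Trpm3 with at least 20 cells per mouse (-0.10), at least 4 of 5 markers (-1.92), cells with neither gene group only (-1.21) and a marker sum of at least 2 (-0.94). Adamts10 turned with S06 and S07 summed as 1 mouse (0.026), without fibroblast-gene cells (0.15) and with mice left out (-0.34 to 0.37). The analysis is limited by 5 to 56 cells per mouse. No paired analysis was possible because control and dKO mice carry different numbers in the labels, S01 to S04 and S05 to S09.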
